A study of Mus musculus with 15 samples.

Results

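Primary hepatocytes of wild-type (WT) mice given carbon tetrachloride (CCl4) were compared with those of WT mice given mineral oil. The comparison took every library with the condition WT, 7 of the 15 libraries of the series, 3 with CCl4 and 4 with mineral oil, and it is described across all genes. Each library is mRNA sequencing of cells labelled as primary mouse hepatocytes. The other 8 libraries come from transgenic ΔEGFR mice, 4 with CCl4 and 4 with mineral oil. They enter here through library scaling, the low-count filter, the shared estimate of spread and the macrophage score term described below, and as side values. The labels used here give no dose, duration, age, sex, strain or animal, so replicates are only numbered within each group. What the p-values measure is the spread from library to library, which may be technical.

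CCl4 is turned into reactive radicals by cytochrome P450 enzymes of the hepatocyte, which kills cells around the central veins, and repeated injury leads to fibrosis. Macrophages enter the injured tissue, take up dead cells and break them down in lysosomes, the acidic compartments where hydrolases digest proteins, glycans and lipids. Hepatocytes carry out the breakdown of amino acids, the conjugation of drugs and bile acids and much of the liver's lipid metabolism. A hepatocyte isolate can hold other liver cells, and in bulk RNA fewer cells of a type and less RNA per cell cannot be told apart.

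Mineral oil replicate 1 and CCl4 replicate 3 were the deepest WT libraries, with 135541303 and 155388787 estimated read counts, and the other 5 held between 51925049 and 61888332. A marker score, the mean log2 CPM (counts scaled to the size of the library) of a list of marker genes, was taken for each cell type. The score of 20 hepatocyte markers was 11.21, 12.12, 12.15 and 11.8 in mineral oil replicates 1 to 4 and 11.46, 10.94 and 10.32 in CCl4 replicates 1 to 3, so the hepatocyte label is borne by its markers in each library. Albumin (Alb) was read at 54096 to 92605 CPM with mineral oil and 35266 to 75647 CPM with CCl4, and its log2 fold change of -0.41 ± 0.44 (SE) did not pass the test (adjusted p = 0.572). Of the 20 markers 4 were called lower with CCl4 and none higher (7.2% of all genes tested were lower). Among them 19 had a negative change, and the median was -0.84 (-0.42 without library scaling). The lower markers numbered 9 without mineral oil replicate 1 and 2 without mineral oil replicate 2.

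The score of 22 macrophage markers was 6.1, 3.29, 1.64 and 5.09 with mineral oil and 6.33, 7.36 and 7.47 with CCl4, so the groups did not overlap. The markers of resident Kupffer cells, the macrophages that line the sinusoids, scored 6.59, 4.29, 2.36 and 5.39 with mineral oil and 5.58, 5.57 and 6.5 with CCl4, and these groups overlapped. Mineral oil replicate 1 stood apart from the other mineral oil libraries in the scores of T and NK cells (3.77), B cells (3.99) and neutrophils (5.66), whose next highest mineral oil values were -0.81, 0.92 and 1.2. Of the 22 macrophage markers 5 were higher with CCl4 (Cd68, Ctss, Mpeg1, Ms4a7, Cx3cr1), and 13 were without mineral oil replicate 1. That count was 2 without mineral oil replicate 4 and 1 each without mineral oil replicate 2 or 3 or CCl4 replicate 2 or 3. Each comparison below was therefore also fitted with the macrophage score of all 15 libraries as a covariate.

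**Figure D1:**
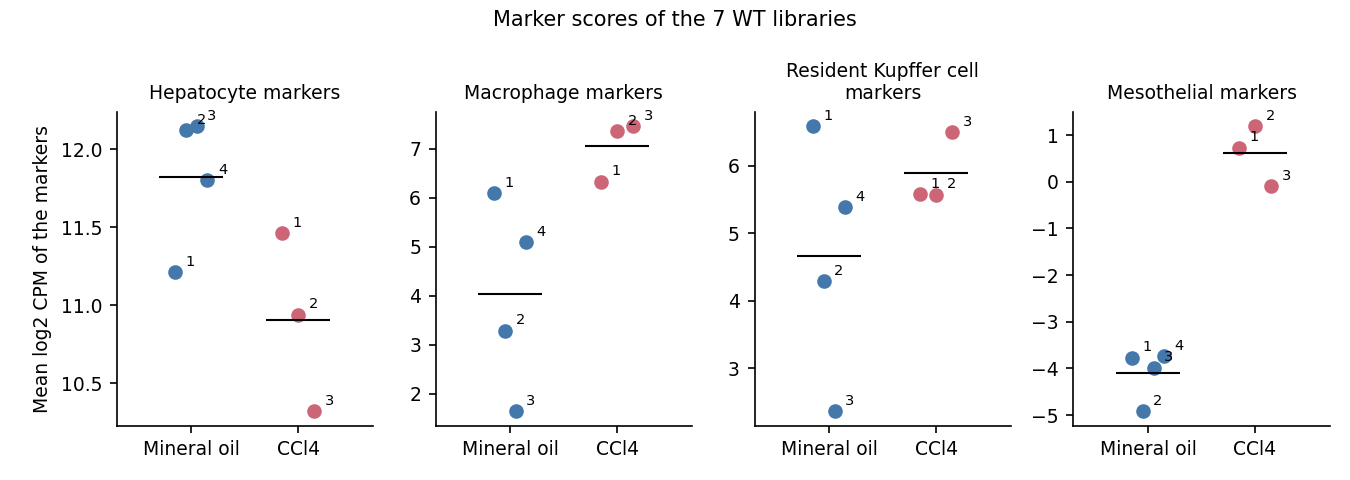
Marker scores (mean log2 CPM, vertical axes that differ between panels and do not start at 0) of the 4 mineral oil and 3 CCl4 libraries of WT mice. Points are libraries with their replicate numbers and lines are group means. The groups are apart in the macrophage and mesothelial scores and overlap in the hepatocyte and Kupffer cell scores.

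Of 17975 genes tested with edgeR's quasi-likelihood test, 955 were higher with CCl4 (5.31%) and 1295 lower (7.2%) at an adjusted p under 0.05. The median log2 fold change was 2.39 over the higher genes and -1.12 over the lower ones, and it was -0.03 over all genes tested. Changes past 16-fold were seen in 234 of the higher and 44 of the lower genes. The split of calls moved with library scaling: with no scaling factor 2326 genes were higher and 515 lower, which shifted the median over all genes to 0.40, and limma on TPM gave 2929 and 357. Directions below are relative to the TMM scaling. Without mineral oil replicate 1 the count of called genes was 5111, without mineral oil replicates 2 and 3 it was 1030 and 1047, and without CCl4 replicates 2 and 3 it was 907 and 575. Of the 2250 called genes 482 (267 higher, 215 lower) were called whichever of the 7 libraries was left out.

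With the macrophage score in the model 97 genes were higher (0.54%) and 177 lower (0.985%). Of the 2250 genes called without the score 184 stayed called in the same direction, 94 higher and 90 lower, and none changed sign. With the score, 727 of the 955 higher and 943 of the 1295 lower genes kept their direction at an unadjusted p (edgeR) under 0.05. The median change of the genes called higher went from 2.39 to 1.3 with the score, and that of the genes called lower from -1.12 to -0.72. In 176 of the higher and 187 of the lower genes the change with the score was under 0.5 of the change without it, while in 84 and 83 it was at least as large. Of the 184, 171 were called without the score whichever library was left out, and each kept its sign with the score. In each of those fits 17 of them were also called with the score. These were Rhoc, Coro1c, Adcy3, Syngr1, Cndp2, Pf4, Anxa3, Gpnmb, Emp1, Slc37a2, Cacna1a and Flrt2, which were higher, and Sult2a8, Susd4, Chpt1, AW112010 and Tlr5, which were lower. Without mineral oil replicates 1, 2 and 3 the number called with the score was 104, 142 and 129, and without CCl4 replicates 2 and 3 it was 64 and 32; the number called in both fits was then 87, 95, 97, 50 and 23. With the score the WT comparison rests on libraries whose scores do not overlap between the groups, and in the 7 WT libraries alone edgeR called 0 genes with it (3023 at an unadjusted p under 0.05).

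**Figure D2:**
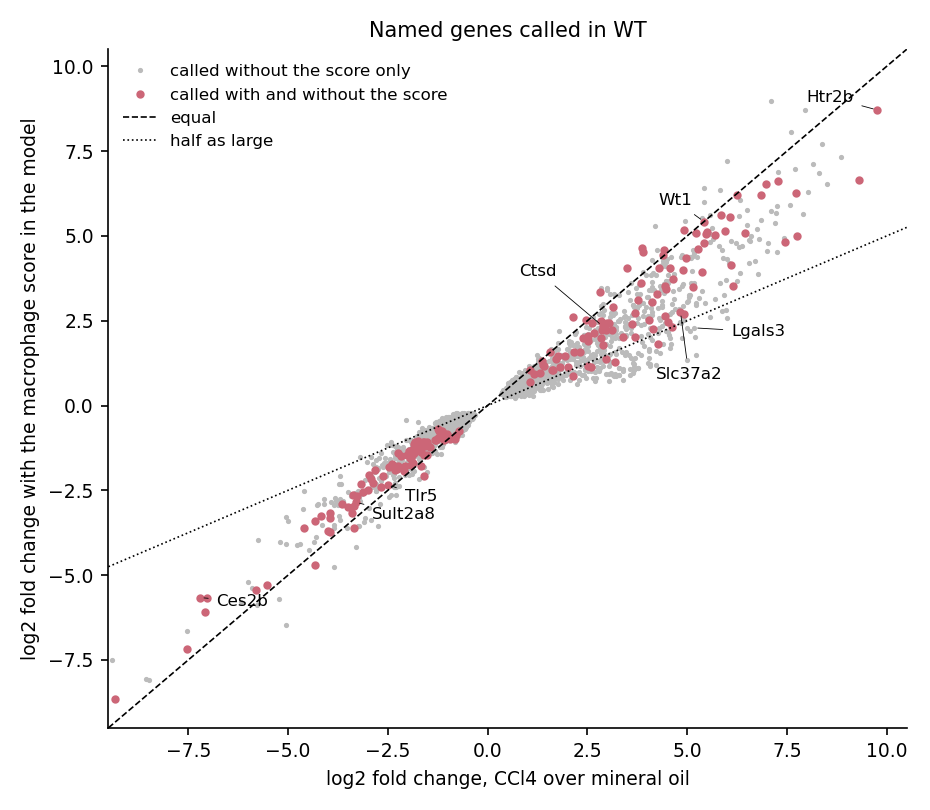
log2 fold change (CCl4 over mineral oil, WT) of the 2219 named genes called without the macrophage score, against the same change with the score in the model. The 184 genes called in both fits are coloured, among them Ctsd (2.88 and 2.34) and Slc37a2 (4.83 and 2.76) but not Lgals3 (5.16 and 2.29). The dashed line marks equal changes and the dotted line a change 0.5 times as large.

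Genes of the lysosome were higher with CCl4. Of 50 lysosomal hydrolases and membrane proteins 20 rose and 1 fell, with a median log2 change of 0.45, and 11 of 20 subunits of the V-ATPase, the proton pump that acidifies the lysosome, rose with none lower and a median of 0.67. The genes that rose include hydrolases that digest proteins (Ctsa, Ctsb, Ctsd, Ctsk, Ctsz, Lgmn, Tpp1), glycans and glycolipids (Gla, Hexa, Gusb, Sgsh), lipids (Lipa, Asah1) and DNA (Dnase2a). These shares stand against 5.31% higher and 7.2% lower over all genes tested. Without CCl4 replicate 3 the counts were 13 of 50 and 7 of 20, and these 13 and 7 genes were called whichever library was left out. With the macrophage score 7 genes of the first list (among them Ctsd, Ctsk, Gla, Gusb, Psap and Lgmn) and 1 V-ATPase subunit stayed called, beside a macrophage score of 1.64 to 6.1 with mineral oil and 6.33 to 7.47 with CCl4. The promoters of 4 genes of both lists that were higher without the score are shown because each holds the motif CACGTG. It is the core of the element bound by the MiT/TFE factors that are known to drive lysosomal genes. The sequences are the 250 bases before a RefSeq transcript start of each gene, read 5′ to 3′ on the minus strand of GRCm38.p6, with the motif in capitals. Where a gene has several starts, the first along the chromosome whose window holds the motif was taken. They are chr7:142387828-142388077 (Ctsd), chrX:134601006-134601255 (Gla), chr12:102439093-102439342 (Lgmn) and chr16:44139260-44139509 (Atp6v1a).
Ctsd: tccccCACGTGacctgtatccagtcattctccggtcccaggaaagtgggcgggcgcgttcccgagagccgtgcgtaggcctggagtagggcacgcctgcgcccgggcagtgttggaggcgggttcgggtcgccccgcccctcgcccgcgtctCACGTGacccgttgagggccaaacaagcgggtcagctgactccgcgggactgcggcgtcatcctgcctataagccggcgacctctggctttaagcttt
Gla: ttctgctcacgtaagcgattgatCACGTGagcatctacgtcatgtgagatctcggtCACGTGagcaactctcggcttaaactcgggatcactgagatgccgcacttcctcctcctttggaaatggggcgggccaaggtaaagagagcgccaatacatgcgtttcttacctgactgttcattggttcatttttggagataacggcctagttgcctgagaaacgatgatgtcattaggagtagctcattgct
Lgmn: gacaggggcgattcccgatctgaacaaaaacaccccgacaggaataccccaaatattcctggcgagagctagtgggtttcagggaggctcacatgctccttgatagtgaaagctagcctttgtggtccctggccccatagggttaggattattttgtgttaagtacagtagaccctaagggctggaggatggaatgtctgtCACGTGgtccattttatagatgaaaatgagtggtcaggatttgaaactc
Atp6v1a: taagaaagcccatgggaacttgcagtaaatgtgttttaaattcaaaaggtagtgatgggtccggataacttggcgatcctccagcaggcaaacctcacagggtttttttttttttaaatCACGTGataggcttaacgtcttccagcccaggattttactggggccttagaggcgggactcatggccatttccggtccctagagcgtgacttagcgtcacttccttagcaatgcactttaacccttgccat

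In the promoters of Ctsd and Gla the motif occurs at 2 positions each, and in those of Lgmn and Atp6v1a at 1. CACGTG, searched on both strands (it reads the same on each), was found in 16 of 63 promoters of the tested genes of both lists (25.4%) and in 1197 of 15385 promoters of all tested genes (7.78%). Among the list genes called higher it was found in 7 of 30 promoters (23.3%), a share like that of the lists as a whole. The longer TCACGTGA, which contains CACGTG, was in 9.52% of the lists' promoters and 1.34% of all. Over all genes called higher the share with CACGTG was 7.74%, and over those called lower 7.27%. A match describes these letters in this window and shows no binding.

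Ctsd, the main aspartic protease of the lysosome, stood at 428, 325, 301 and 521 CPM in the mineral oil libraries and at 1053, 3805 and 3839 CPM in the CCl4 libraries. The groups did not overlap, and CCl4 replicate 1 was the lowest of its group. Its log2 change was 2.88 ± 0.38 (adjusted p = 0.00344), and 2.34 with the macrophage score (adjusted p = 0.0263). Psap, which encodes the precursor of the saposins that help break down sphingolipids, was at 760, 512, 448 and 768 CPM with mineral oil and 1371, 4279 and 5035 CPM with CCl4. Its change was 2.52 ± 0.38 without the score and 1.90 with it (adjusted p = 0.00382 and 0.0369). Psap had the same order as Ctsd, with CCl4 replicate 1 between the mineral oil libraries and the other CCl4 libraries. Gla, the galactosidase that is lacking in Fabry disease, was at 9.04, 6.66, 5.63 and 7.28 CPM and at 14.1, 36.9 and 45.7 CPM, a change of 2.17 ± 0.33 (adjusted p = 0.00382) and of 1.58 with the score (adjusted p = 0.044). Ctsk, a collagen-degrading cathepsin, was below 1 CPM in each mineral oil library and at 3.82, 9.68 and 17.7 CPM with CCl4. Its change of 4.90 ± 0.81 was 6.01 without mineral oil replicate 1 and 4.29 without CCl4 replicate 3. Lgmn, the asparaginyl endopeptidase legumain, rose by 2.59 ± 0.59 (adjusted p = 0.0163), and its adjusted p was 0.0705 without CCl4 replicate 3.

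Atp6v0d2, a V-ATPase subunit known from macrophages and osteoclasts, was at 3.15, 1.7, 1.9 and 7.9 CPM with mineral oil and at 16.3, 148 and 184 CPM with CCl4. Its change of 4.98 ± 0.71 was the one in the V-ATPase list that stayed called with the score (4.34, adjusted p = 0.028). It was 5.58 without CCl4 replicate 1 and 5.67 without mineral oil replicate 4. Atp6v1a, the catalytic subunit, moved less, from 51.9 to 58.9 CPM over the mineral oil libraries to 73.4, 144 and 183 CPM, a change of 1.24 ± 0.23 (adjusted p = 0.00718) that was not called with the score (1.04, adjusted p = 0.0856). Mitf, which encodes an MiT/TFE factor, was at 4.58, 4.33, 4.09 and 5.6 CPM and at 9.77, 16.7 and 24.3 CPM, a change of 1.87 ± 0.32 (adjusted p = 0.00549). With the score its change was 1.26 (adjusted p = 0.0726).

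Few autophagy genes rose with the hydrolases. Of 36 genes of the autophagy machinery 1, Mitf, rose and 12 fell, with a median change of -0.31, which was 0.14 with no scaling factor, where 4 were higher and 2 lower. The 12 include both ULK kinases that start autophagosome formation (Ulk1, Ulk2), their partner Rb1cc1 and the lipid transfer proteins Atg2a and Atg2b. The count of lower genes was 16 without mineral oil replicate 1, 5 without mineral oil replicate 2 or 3 and 4 without CCl4 replicate 2 or 3. Ulk2 was at 80, 101, 124 and 102 CPM with mineral oil and at 38.6, 42.4 and 42.4 CPM with CCl4. No mineral oil library was near the CCl4 libraries, and the change, -1.30 ± 0.18 (adjusted p = 0.00344), was the one of this list that stayed called with the score (-1.01, adjusted p = 0.0263). Atg2a fell from between 85.4 and 121 CPM to between 58.1 and 66 CPM (-0.81 ± 0.14, adjusted p = 0.00551), and with no scaling factor its change was -0.37 (adjusted p = 0.157).

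**Figure D3:**
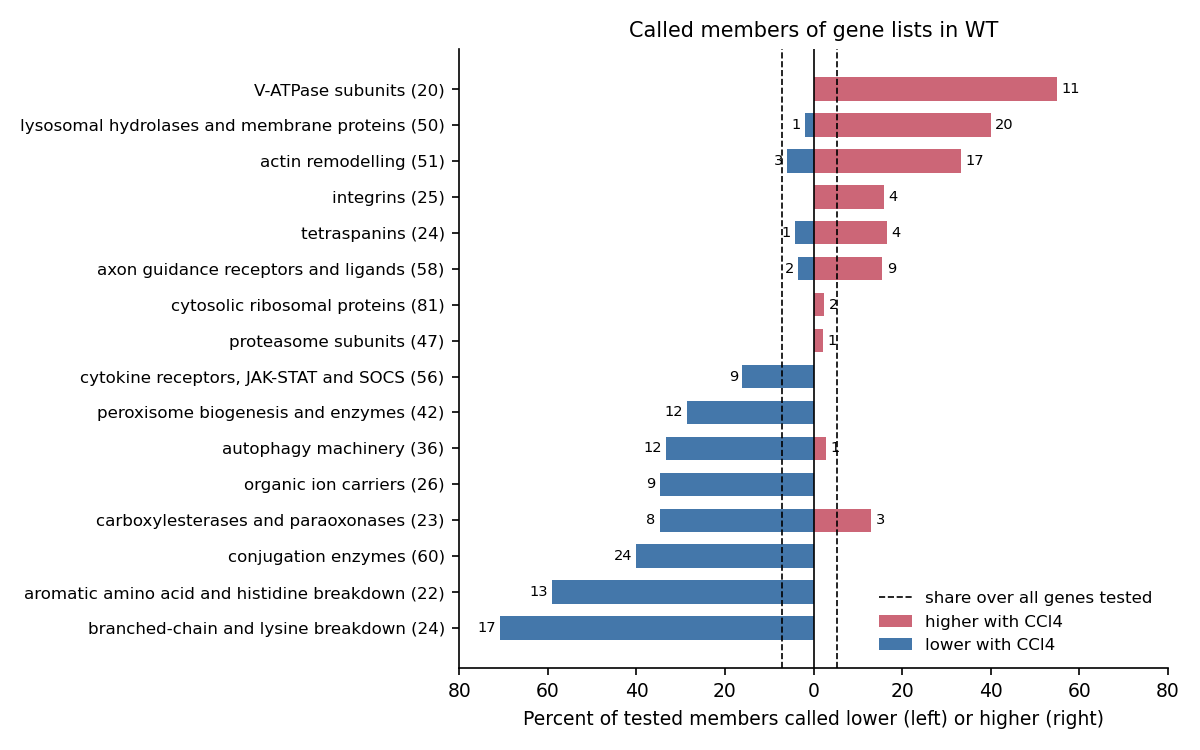
Percent of the tested members of 16 gene lists called lower (left) or higher (right) with CCl4 in WT libraries, without the macrophage score. Numbers beside bars count the called genes, numbers in brackets the tested ones, and dashed lines mark the shares over all genes tested (7.2% lower, 5.31% higher).

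Several genes of the cell surface and of membrane transport rose with and without the macrophage score. Slc37a2, a sugar phosphate carrier of the endoplasmic reticulum that is abundant in macrophages, was at 8.38, 1.03, 0.599 and 3.81 CPM with mineral oil and 32.9, 98.3 and 167 CPM with CCl4. The mineral oil libraries followed the order of their macrophage scores, and no mineral oil library reached the CCl4 libraries. Its change was 4.83 ± 0.95 (adjusted p = 0.00918; 5.77 without mineral oil replicate 1) and 2.76 with the score (adjusted p = 0.0107). Adcy3, an adenylyl cyclase, was at 3.93, 0.404, 0.22 and 2.36 CPM and at 21.4, 65.3 and 71.9 CPM. Its change of 4.91 ± 0.99 (5.72 without mineral oil replicate 1) was 2.71 with the score (adjusted p = 0.0174). Both genes stayed called with the score whichever library was left out.

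Lrp12, Slc27a1, Cacna1a and Gpr157 changed by nearly as much with the score as without it. Lrp12, a member of the LDL receptor family, was at 4.38, 5.27, 5.01 and 5.11 CPM with mineral oil and at 14.5, 42 and 50.4 CPM with CCl4, and its change was 2.85 ± 0.35 without the score and 2.50 with it (adjusted p = 0.00344 and 0.0263). Slc27a1, a fatty acid transport protein, was at 5.43 to 7.18 CPM and at 17.3, 47.2 and 57.3 CPM, with changes of 2.62 ± 0.35 and 2.43. The mineral oil values of both genes lay within a narrow band, unlike those of Slc37a2. Cacna1a, a pore-forming subunit of neuronal calcium channels, went from 0.247 to 0.439 CPM to 6.82, 4.02 and 3.4 CPM, with changes of 3.85 ± 0.49 and 3.61 (adjusted p = 0.00344 and 0.0174). Gpr157, an orphan G protein-coupled receptor, was at 3.19, 4.73, 5.23 and 4.75 CPM and at 8.03, 31.9 and 34 CPM, with changes of 2.46 ± 0.39 and 2.52. Cndp2, a cytosolic dipeptidase, was at 44, 39.2, 42.4 and 49.9 CPM with mineral oil and at 87.4, 114 and 144 CPM with CCl4. Its change was 1.39 ± 0.16, and 1.20 with the score, and with Cacna1a and Flrt2 it stayed called with the score whichever library was left out. Flrt2, a membrane protein of cell adhesion and axon guidance, was at or below 0.49 CPM in each mineral oil library and at 5.65, 7.19 and 16.7 CPM with CCl4. Its change was 5.15 ± 0.78 without the score and 3.48 with it (adjusted p = 0.00382 and 0.0113).

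Receptor and peptide genes that were almost silent with mineral oil were read with CCl4. Htr2b, a serotonin receptor, had 2 counts in the 4 mineral oil libraries together and 2096 in the 3 CCl4 libraries, at 1.65, 15 and 4.92 CPM. The ratio of the groups was 904 (95% counting interval 250 to 7.47e+03, which covers counting error only). Npy, which encodes the peptide transmitter neuropeptide Y, had 2 counts against 651, at 1.15, 1.81 and 2.25 CPM with CCl4, a ratio of 281 (77.5 to 2.32e+03). Both genes were called without the score (adjusted p = 0.00344 each) and with it (0.0387 for Htr2b and 0.0189 for Npy). The fitted change of Htr2b was 9.76, 8.72 without CCl4 replicate 2 and 10.41 without mineral oil replicate 3, and that of Npy was 7.73 and 8.37 without mineral oil replicate 4. In all, 8 genes stood below 0.1 CPM in each mineral oil library and above 1 CPM in each CCl4 library, and 2 genes, Ces2b and Gm13775, went the other way. All 10 passed the test, but the test used the same libraries by which they were picked, so this adds no support.

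Markers of the mesothelium, the cell layer that covers the liver, were higher with CCl4. All 6 on the list rose, with a median log2 change of 5.20, and 4 stayed called with the macrophage score. The mesothelial score was -3.77, -4.92, -3.98 and -3.74 with mineral oil and 0.73, 1.2 and -0.09 with CCl4, so the groups lay far apart. Msln, the surface protein mesothelin, was at 0.0372, 0, 0.0599 and 0.113 CPM with mineral oil and at 2.08, 2.89 and 1.03 CPM with CCl4. Its change was 5.23 ± 0.88 (adjusted p = 0.00549; 5.82 without mineral oil replicate 4) and 5.08 with the score (adjusted p = 0.0326). Wt1, a transcription factor of mesothelium and its precursors, was at 0.0297, 0, 0.0599 and 0.0188 CPM and at 1.5, 1.41 and 0.823 CPM, with a change of 5.42 in both fits (adjusted p = 0.00529 and 0.0315). Upk1b, a uroplakin, was at or below 0.0399 CPM with mineral oil and at 1.09, 1.49 and 0.589 CPM with CCl4. Msln, Wt1 and Upk1b had no count in mineral oil replicate 2, and CCl4 replicate 2 was the highest of its group in Msln and Upk1b. Lrrn4 also rose (4.04 ± 0.95, adjusted p = 0.0183; 4.92 without mineral oil replicate 1), and its adjusted p was 0.0508 without mineral oil replicate 2 and 0.0622 without CCl4 replicate 2. Muc16 and Pdpn, mesothelial surface proteins that were not on the list and were chosen after their values were seen, rose by 3.90 ± 0.82 and 5.42 ± 0.87 and were called with the score too.

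Genes of the actin cytoskeleton rose in part. Of 51 genes of actin remodelling 17 were higher and 3 lower, with a median log2 change of 0.76, and with the score 4 were higher (Capg, Cfl1, Tpm2, Coro1c). The 17 hold 5 subunits of the Arp2/3 complex, which nucleates branched filaments (Arpc1b, Arpc2, Arpc3, Arpc4, Arpc5), and 3 tropomyosins, which coat filaments (Tpm1, Tpm2, Tpm3). The count of higher genes was 36 without mineral oil replicate 1, 10 without mineral oil replicate 4, 8 without CCl4 replicate 2, and 7 each without mineral oil replicate 2 or 3 or CCl4 replicate 3. The count of lower genes was 1 without mineral oil replicate 2 or 3 or CCl4 replicate 2 and 0 without CCl4 replicate 3. Cfl1, the filament-severing protein cofilin, was at 237, 181, 171 and 208 CPM with mineral oil and at 396, 403 and 442 CPM with CCl4. Each CCl4 library was above each mineral oil library, with a change of 1.05 ± 0.17 (adjusted p = 0.00444) and 0.70 with the score (adjusted p = 0.0326). Coro1c, a coronin that binds filaments at the cell edge, was at 39.6, 23.9, 23.1 and 44.5 CPM and at 83.9, 99.4 and 120 CPM. Its change was 1.62 ± 0.25 (adjusted p = 0.00426) and 1.04 with the score (adjusted p = 0.0174). Rhoc, a small GTPase of actin assembly and cell movement, was at 11.3, 6.35, 2.87 and 10.6 CPM with mineral oil and at 47.9, 52 and 73.2 CPM with CCl4, a change of 2.89 ± 0.46 (adjusted p = 0.00452) and of 1.79 with the score (adjusted p = 0.0107). Coro1c and Rhoc stayed called with the score whichever library was left out.

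Other cytoskeletal genes fell. Myo6, the myosin that moves toward the minus end of filaments in endocytosis, was at 60.5, 66.4, 76.2 and 75 CPM with mineral oil and at 35.2, 26.5 and 25.9 CPM with CCl4. It fell (-1.25 ± 0.18, adjusted p = 0.00344), and its change with the score was -0.97 (adjusted p = 0.0263). Arhgap42, a GTPase-activating protein, was at 60.4, 89.2, 110 and 84.3 CPM and at 39.1, 37.7 and 32.6 CPM, with changes of -1.24 ± 0.23 and -0.68 (adjusted p = 0.00681 and 0.0373). Both genes had CCl4 libraries that were each below the mineral oil libraries, as did 11.9% of all genes tested.

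**Figure D4:**
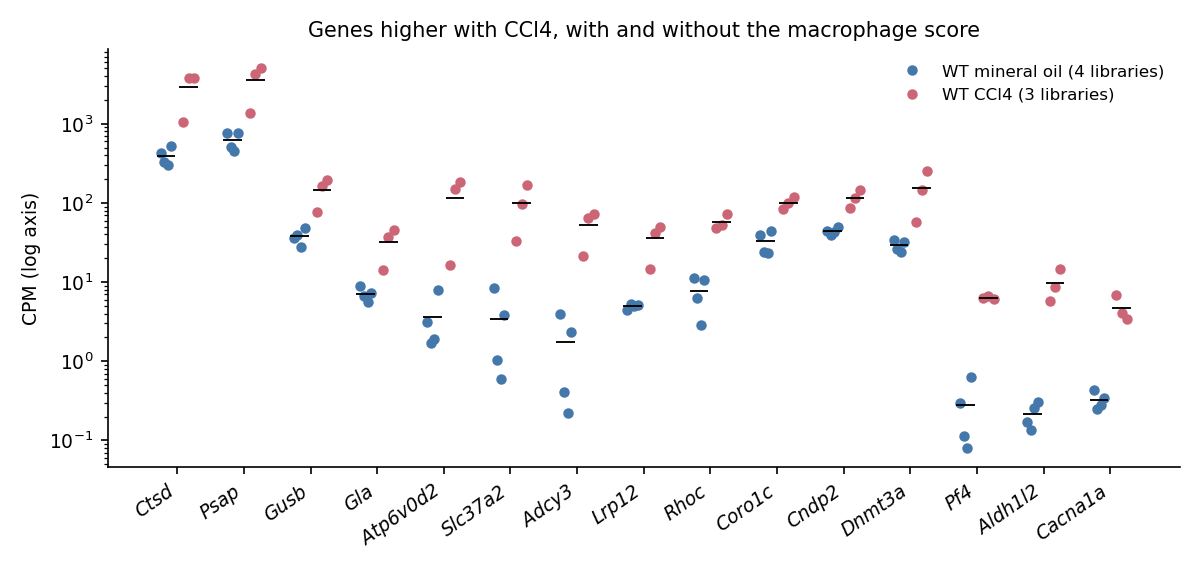
CPM (log axis) of 15 genes called higher with CCl4 with and without the macrophage score, in the 4 mineral oil and 3 CCl4 libraries of WT mice. Points are libraries and lines are group means. The groups do not overlap in any of the 15 genes, and Pf4 sits between 6.07 and 6.71 in the CCl4 libraries. Non-overlap was part of the rule that picked some of them, and all 94 genes called higher in both fits had it. Of all genes tested 12.1% had each CCl4 library above each mineral oil library.

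Secreted and growth-linked genes were among those that stayed called with the score. Pf4, a chemokine of platelet granules that macrophages also make, was at 0.297, 0.112, 0.0798 and 0.641 CPM with mineral oil and at 6.29, 6.71 and 6.07 CPM with CCl4. The CCl4 libraries were close together, and the change was 4.48 ± 0.66 (adjusted p = 0.00382; 5.19 without mineral oil replicate 4) and 3.42 with the score (adjusted p = 0.0174). The list of 8 red cell and platelet markers, with a score of -1.09 to 3.87 with mineral oil and 0.43 to 3.08 with CCl4, had 2 members higher (Pf4, Ppbp) and 1 lower (Alas2), and its part in the result was not tested. Vwf, the clotting protein of endothelium and platelets, rose from between 0.18 and 1 CPM to 6.38, 3.87 and 4.36 CPM (3.11 ± 0.57, and 2.23 with the score). The score of the 14 sinusoidal endothelial markers was 6.4, 2.84, 2.68 and 4.59 with mineral oil and 5.63, 4.03 and 4.29 with CCl4. None of these markers was called, and their median change was -0.14 (0.12 with no scaling factor). Without mineral oil replicate 1, whose score was the highest, the median was 1.09 and 2 markers (Stab1, Fcgr2b) were called. Their part in the change of Vwf was not tested. Htra1, a secreted serine protease, was at 0.55, 0.112, 0.12 and 0.377 CPM and at 2.56, 5.53 and 7.47 CPM, with changes of 4.12 ± 0.64 and 3.04 (adjusted p = 0.00416 and 0.0263).

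Dnmt3a, which methylates unmodified DNA, was at 34, 26.3, 24.1 and 31.8 CPM with mineral oil and at 57.9, 145 and 256 CPM with CCl4. The libraries of the CCl4 group were spread over a wide range but each lay above the mineral oil group, and the change was 2.39 ± 0.35 and 1.98 with the score (adjusted p = 0.00382 and 0.0397). Hmga1, a chromatin protein of fetal and growing tissue, was at 29, 29.9, 27.1 and 42.2 CPM and at 73.7, 71.6 and 95.3 CPM, with changes of 1.32 ± 0.20 and 0.97. Aldh1l2, the mitochondrial enzyme that releases one-carbon units from folate, was at 0.171, 0.135, 0.259 and 0.302 CPM and at 5.71, 8.68 and 14.6 CPM. Its change was 5.48 ± 0.83 (adjusted p = 0.00382) and 5.06 with the score (adjusted p = 0.0427), while the cytosolic Aldh1l1 fell by 2.02 on the log2 scale.

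Other strong changes were smaller with the score and were not called with it, though a change in the same direction remained. Lgals3, which encodes galectin-3 of activated macrophages, was at 37.7, 2.22, 1.44 and 24.6 CPM with mineral oil and at 161, 517 and 1089 CPM with CCl4. The mineral oil values followed the macrophage score, and the change of 5.16 ± 1.25 (adjusted p = 0.0202) was 2.29 with the score (adjusted p = 0.0529). It was 5.97 without mineral oil replicate 1 and 4.37 without CCl4 replicate 3, and its adjusted p was 0.0503 without mineral oil replicate 2 and 0.0794 without CCl4 replicate 3. C3ar1, the receptor of the complement fragment C3a, went from 9.97, 1.57, 0.738 and 8.27 CPM to 37.8, 113 and 137 CPM. Its change of 4.22 ± 1.02 (adjusted p = 0.0204) was 1.60 with the score (adjusted p = 0.0601), and its adjusted p was 0.0573, 0.0535 and 0.0728 without mineral oil replicate 2, CCl4 replicate 2 and CCl4 replicate 3.

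With the score 87 genes were called lower that were not called without it, among them genes of resident Kupffer cells, of which 4 of 8 were lower (Clec4f, Timd4, Folr2, Fcna). Clec4f and Timd4 are also among the 22 macrophage markers that make the score. Clec4f, a lectin of Kupffer cells, was at 295, 52.7, 19.8 and 176 CPM with mineral oil and at 116, 185 and 357 CPM with CCl4. The groups overlapped, and its change was 0.69 ± 0.90 (adjusted p = 0.647; 1.40 without mineral oil replicate 1), against -1.68 with the score (adjusted p = 0.0174). Timd4, a phosphatidylserine receptor of resident macrophages, was at 38.8, 4.93, 1.44 and 15.2 CPM and at 10.1, 14 and 22.9 CPM, with changes of 0.05 ± 0.97 and -2.21 (adjusted p = 0.979 and 0.00957; 1.12 without the score and without mineral oil replicate 1). Relative to the macrophage score these genes were lower, and in CPM they were not.

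Genes of amino acid breakdown were lower with CCl4. Of 22 genes that degrade aromatic amino acids and histidine 13 fell and none rose (median -1.18), and of 24 for branched-chain amino acids and lysine 17 fell and none rose (median -0.93). The first list held genes of tyrosine breakdown (Hpd, Hgd, Gstz1, Fah) and the kynurenine pathway of tryptophan (Tdo2, Afmid, Kmo, Kynu, Haao, Aadat), and the second both subunits of the branched-chain ketoacid dehydrogenase E1 (Bckdha, Bckdhb). These counts rested on few libraries. Without CCl4 replicate 3 they were 3 and 1, without CCl4 replicate 2 they were 7 and 3, without mineral oil replicate 2 or 3 they were 7 and 6, without CCl4 replicate 1 they were 8 and 11, and without mineral oil replicate 4 they were 11 and 11. With the macrophage score 2 and 0 genes were called lower, with median changes of -0.49 and -0.42, and the hepatocyte score was 11.21 to 12.15 with mineral oil and 10.32 to 11.46 with CCl4.

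Aadat, which transaminates kynurenine and aminoadipate, was at 69.8, 126, 156 and 79.9 CPM with mineral oil and at 22.5, 21.9 and 17.3 CPM with CCl4. The CCl4 libraries were close together and below each mineral oil library, and the change was -2.39 ± 0.35 (adjusted p = 0.00363) and -1.72 with the score (adjusted p = 0.0263). Afmid, the formamidase of the same pathway, was at 79.9, 122, 111 and 163 CPM and at 23.5, 38.4 and 22 CPM, with changes of -2.09 ± 0.32 and -1.93 (adjusted p = 0.00383 and 0.0323). Tdo2, which opens the tryptophan ring, was at 846, 1802, 1590 and 1048 CPM and at 373, 472 and 278 CPM. It fell (-1.82 ± 0.39, adjusted p = 0.012), was not called with the score (-1.10, adjusted p = 0.122), and had an adjusted p of 0.0614 without CCl4 replicate 3. Prodh, which starts proline breakdown, was at 87.5, 250, 142 and 119 CPM with mineral oil and at 23.6, 28 and 21.1 CPM with CCl4, with changes of -2.63 ± 0.38 and -2.07 (adjusted p = 0.00352 and 0.0284). In each of these 4 genes every CCl4 library was below every mineral oil library, as in 11.9% of all genes tested.

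The methionine cycle and folate genes fell in part. Of 41 genes of methionine, glycine, serine and folate metabolism 13 fell and 4 rose (median -0.49), and without CCl4 replicate 3 these counts were 6 and 2. Over all genes tested 7.2% fell and 5.31% rose. The 4 that rose make serine (Psat1, Psph) or handle one-carbon units in mitochondria (Mthfd2, Aldh1l2). The count of lower genes was 20 without mineral oil replicate 1, and that of higher genes 7 without it and 2 without each other library. Ahcy, which hydrolyses S-adenosylhomocysteine, was at 1398, 2735, 2250 and 1595 CPM with mineral oil and at 655, 584 and 460 CPM with CCl4. The groups were apart, with a change of -1.82 ± 0.29 (adjusted p = 0.00434) and of -1.23 with the score (adjusted p = 0.0264). Gnmt, the methyltransferase that disposes of excess S-adenosylmethionine, was at 642, 1492, 1400 and 1158 CPM and at 405, 298 and 274 CPM, with changes of -1.85 ± 0.33 and -1.13 (adjusted p = 0.00638 and 0.0442). Mat1a, which makes S-adenosylmethionine in the liver, was at 1256, 3478, 2225 and 1613 CPM and at 492, 598 and 482 CPM. Its change of -2.03 ± 0.38 (adjusted p = 0.00745) was not called with the score (-1.36, adjusted p = 0.084). Aldh1l1 was at 969, 2246, 2103 and 1857 CPM and at 503, 458 and 364 CPM (-2.02 ± 0.38, adjusted p = 0.00736; with the score -1.35, adjusted p = 0.0717). Psat1, the transaminase of serine synthesis, went the other way, from 3.33, 0.448, 0.559 and 1.68 CPM to 19.1, 13.8 and 17.3 CPM (3.46 ± 0.76, adjusted p = 0.0136; 4.22 without mineral oil replicate 1; with the score 2.26, adjusted p = 0.0903). In Ahcy, Gnmt, Mat1a and Aldh1l1 mineral oil replicate 1 was the lowest of its group and still above each CCl4 library.

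Conjugation enzymes were lower with CCl4. Of 60 UDP-glucuronosyl-, sulfo-, glutathione and other transferases of this list 24 fell and none rose (median -0.86), and 5 stayed called with the macrophage score (Ugt2b1, Ugt3a1, Sult2a7, Sult2a8, Nat8). Lower enzymes numbered 15 without mineral oil replicate 3, 12 without CCl4 replicate 2 and 7 without CCl4 replicate 3. Sult2a8, a bile acid sulfotransferase of the mouse liver, was at 455, 433, 371 and 257 CPM with mineral oil and at 30.6, 34.2 and 50 CPM with CCl4. Its change was -3.31 ± 0.43 (adjusted p = 0.00344), and -2.85 with the score (adjusted p = 0.0143), called whichever library was left out. Ugt3a1, a glycosyltransferase, was at 45, 70, 84.4 and 59.9 CPM and at 11, 7.59 and 7.39 CPM, with changes of -2.91 ± 0.42 and -2.18 (adjusted p = 0.00352 and 0.0174). Ugt2b1, which glucuronidates steroids and drugs, was at 325, 498, 578 and 541 CPM and at 122, 98.6 and 68.5 CPM, with changes of -2.33 ± 0.32 and -1.89 (adjusted p = 0.00344 and 0.0232). In Ugt3a1 and Ugt2b1 mineral oil replicate 1 was the lowest of its group, and in Sult2a8 it was the highest. The Sult2a and Ugt genes have near-identical copies, and RSEM divides shared reads among copies by estimate, so values of single members are uncertain.

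Carriers and phase I enzymes fell with them. Of 26 organic ion carriers 9 fell and none rose (median -0.85), and the count was 14 without mineral oil replicate 1, 4 without CCl4 replicate 2 and 2 without CCl4 replicate 3. Slc10a1, the sodium-coupled bile acid carrier of the sinusoidal membrane, was at 363, 504, 618 and 447 CPM with mineral oil and at 109, 114 and 84.8 CPM with CCl4. Its change was -2.24 ± 0.40 (adjusted p = 0.00638) and -1.40 with the score (adjusted p = 0.0285). Slc47a1, which exports organic cations into bile, was at 57.8, 80.4, 70.2 and 86.4 CPM and at 22.4, 24.9 and 10.7 CPM, with changes of -1.93 ± 0.33 and -1.55. Of 23 carboxylesterases and paraoxonases 8 fell and 3 rose (Ces1h, Pon2 and Nceh1; median -1.10), and without CCl4 replicate 3 these counts were 4 and 0. Without mineral oil replicate 1 they were 14 and 2. The 3 higher ones became 1 without mineral oil replicate 2, 3 or 4 and 0 without CCl4 replicate 2. Ces1h was barely read, at 0, 0.123 and 0.33 CPM with CCl4 and at or below 0.0188 CPM with mineral oil, and its groups overlapped. Ces2b was at 2.41, 4.04, 16.4 and 1.07 CPM with mineral oil and at or below 0.0574 CPM with CCl4 (-7.21 ± 1.13, adjusted p = 0.00437; -5.96 without mineral oil replicate 3). Aox3, the aldehyde oxidase of mouse liver, was at 645, 649, 1167 and 786 CPM and at 140, 197 and 205 CPM, with changes of -2.17 ± 0.38 and -1.49 (adjusted p = 0.00629 and 0.0458). Aqp11, a water channel of intracellular membranes, was at 57, 73, 59.9 and 54 CPM and at 16.8, 18.2 and 12.7 CPM, with changes of -1.94 ± 0.27 and -1.55 (adjusted p = 0.00344 and 0.0189).

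**Figure D5:**
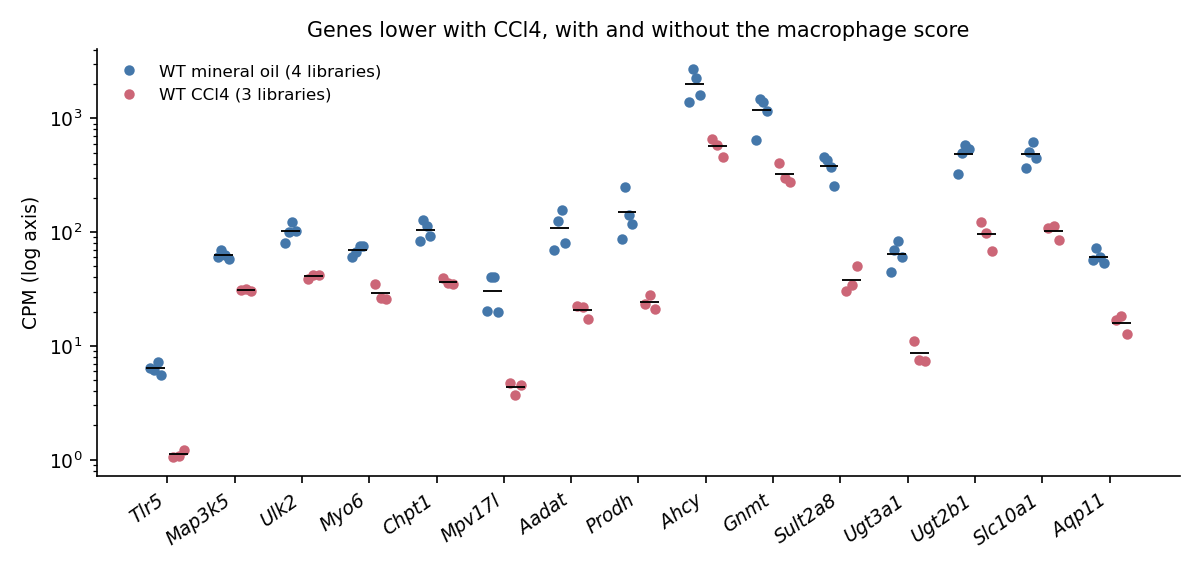
CPM (log axis) of 15 genes called lower with CCl4 with and without the macrophage score, in the 4 mineral oil and 3 CCl4 libraries of WT mice. Points are libraries and lines are group means. The groups do not overlap in any of the 15 genes, and Tlr5 sits between 1.06 and 1.22 in the CCl4 libraries. Non-overlap was part of the rule that picked some of them, and all 90 genes called lower in both fits had it. Of all genes tested 11.9% had each CCl4 library below each mineral oil library.

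Tlr5, the receptor for bacterial flagellin, had the lowest adjusted p of the genes named here. It was at 6.41, 6.21, 7.2 and 5.56 CPM with mineral oil and at 1.06, 1.08 and 1.22 CPM with CCl4. Both groups were tight, and the change of -2.50 ± 0.25 (adjusted p = 0.00151) was -2.33 with the macrophage score (adjusted p = 0.00957), called whichever library was left out. Nlrp6 and Nlrp12, cytosolic sensors of the NLR family, also fell, with changes of -1.45 ± 0.32 and -1.73 ± 0.42 (adjusted p = 0.0136 and 0.021), and were not called with the score (adjusted p = 0.0901 and 0.11). The adjusted p of Nlrp6 was 0.0688 without CCl4 replicate 3, and that of Nlrp12 was 0.0945 and 0.0889 without CCl4 replicates 2 and 3. On the whole list of 40 pattern recognition and inflammasome genes 4 fell (Tlr5, Nlrp6, Nlrp12, Mavs) and none rose, with a median of 0.42. The count of lower genes is near the share over all genes tested (7.2%). Without mineral oil replicate 1, 14 of them were higher, and the count of lower ones was 2 without CCl4 replicate 2 and 1 without CCl4 replicate 3.

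Some receptor and kinase genes fell. Of 56 cytokine receptors and JAK-STAT genes 9 fell and none rose, with a median of -0.20 that was 0.19 with no scaling factor. The count of lower genes was 4 and 5 without mineral oil replicates 2 and 3, and 6, 3 and 1 without CCl4 replicates 1, 2 and 3, and 14 genes were higher without mineral oil replicate 1. With the score none was lower and 1 was higher (Il11ra1). Of 53 G protein-coupled receptors of hormones, lipids and nucleotides 4 rose (P2ry6, Gprc5b, C3ar1, Gpr137b) and 4 fell (P2ry1, Adra1b, Gcgr, Gpr155). These counts are near the shares over all genes tested, 5.31% higher and 7.2% lower. The count of higher genes was 18 without mineral oil replicate 1, 2 without mineral oil replicate 2 and 1 each without CCl4 replicates 2 and 3, and 9 with no scaling factor. Lower genes numbered 8 without mineral oil replicate 1, 1 each without mineral oil replicates 2 and 3 and CCl4 replicate 2, 2 without mineral oil replicate 4, and 0 without CCl4 replicate 3 and with no scaling factor. With the score 2 of the 53 receptors were higher and 3 lower. The genes that follow are single genes, and except for Ghr they belong to neither list. Ghr, the growth hormone receptor, was at 417, 548, 663 and 418 CPM with mineral oil and at 178, 182 and 143 CPM with CCl4 (-1.61 ± 0.31, adjusted p = 0.00905; with the score -0.94, adjusted p = 0.0616). Met, the receptor of hepatocyte growth factor, was at 80, 146, 105 and 91.5 CPM and at 53.3, 41.7 and 43.8 CPM, with changes of -1.19 ± 0.19 and -0.90 (adjusted p = 0.0045 and 0.0484). Map3k5, the stress kinase ASK1, was at 61, 70.3, 62.5 and 58 CPM and at 31.1, 31.4 and 30.4 CPM. The CCl4 libraries were nearly level, and the change was -1.02 ± 0.12 and -0.86 with the score (adjusted p = 0.00344 and 0.0174). Prkaa2, a catalytic subunit of the energy sensor AMPK, was at 71.7, 95.1, 132 and 83.6 CPM and at 39.8, 39.8 and 42.4 CPM, with changes of -1.23 ± 0.21 and -0.76 (adjusted p = 0.00555 and 0.0487). By limma on TPM the changes of Map3k5 and Prkaa2 were -0.47 and -0.63 and were not called (adjusted p = 0.138 and 0.0929).

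Some genes of peroxisomes and of lipid metabolism were lower. Of 42 genes of peroxisome biogenesis and metabolism 12 fell and none rose (median -0.51, and -0.06 with no scaling factor, where 6 fell). The count was 26 without mineral oil replicate 1, 7 and 6 without mineral oil replicates 2 and 3, 7 and 4 without CCl4 replicates 1 and 2, and 2 without CCl4 replicate 3, and with the score it was 0. Decr2, which acts on unsaturated fatty acids in peroxisomes, was at 122, 183, 153 and 175 CPM with mineral oil and at 59.2, 59.8 and 45.9 CPM with CCl4, with changes of -1.53 ± 0.23 and -1.12 (adjusted p = 0.00383 and 0.0284). Of 60 enzymes of phospholipids and sphingolipids 9 fell and 4 rose (Acer3, Sgpl1, Pla2g15, Agpat1), with a median of 0.07 (0.36 with no scaling factor, where 6 fell and 8 rose), and with the score 1 was lower (Chpt1) and none higher. Over all genes tested 7.2% were lower and 5.31% higher, and the count of higher enzymes is near that share. Lower enzymes numbered 15 without mineral oil replicate 1, 5 without mineral oil replicate 3, 4 and 1 without CCl4 replicates 2 and 3, and 6 each without mineral oil replicate 2 and CCl4 replicate 1. Higher enzymes numbered 13 without mineral oil replicate 1 and 1 each without CCl4 replicates 2 and 3. Single genes of mitochondria and membranes fell too. Mpv17l, a relative of the mitochondrial membrane protein Mpv17, was at 20.4, 40, 40.4 and 19.9 CPM and at 4.73, 3.69 and 4.53 CPM, with changes of -2.81 ± 0.43 and -1.90 (adjusted p = 0.00394 and 0.0174). Chpt1, which makes phosphatidylcholine from diacylglycerol, was at 83.5, 129, 113 and 93.4 CPM and at 39.3, 35.7 and 35.1 CPM. Its change of -1.51 ± 0.20 (adjusted p = 0.00344) was -1.07 with the score (adjusted p = 0.011), called whichever library was left out. Fdx1, the ferredoxin that feeds electrons to mitochondrial P450 enzymes, was at 133, 108, 92.9 and 78.5 CPM and at 36, 38.6 and 27.9 CPM, with changes of -1.60 ± 0.23 and -1.47 (adjusted p = 0.00344 and 0.0256).

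Genes of general protein metabolism moved little. Of 81 cytosolic ribosomal protein genes 2 rose (Rpl39l, Rps12) and none fell, although 79 had a positive change and 52 had CCl4 libraries that were each above the mineral oil libraries (12.1% of all genes tested did). Their median was 0.32, and 35 were higher with no scaling factor, 8 without mineral oil replicate 1, 3 without CCl4 replicate 1, 1 each without mineral oil replicates 2, 3 and 4 and CCl4 replicate 2, and 0 without CCl4 replicate 3. Of 78 mitochondrial ribosomal and 47 proteasome genes 1 each rose (Mrps6 and Psmd10) and none fell, with medians of -0.04 and -0.05 that were 0.41 and 0.41 with no scaling factor, where 9 and 11 were higher. Without mineral oil replicate 1, 8 and 3 of them were lower. No mitochondrial ribosomal gene was higher without mineral oil replicate 2 or without CCl4 replicate 3, and no proteasome gene without mineral oil replicate 3.

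Families defined by their gene symbols were counted too, and those with the highest shares are given. Over all genes tested 5.31% were higher and 7.2% lower. Among 198 families with at least 10 tested genes, the share called higher was 36.4% in the Serpinb family of intracellular protease inhibitors (Serpinb12, Serpinb1c, Serpinb2 and Serpinb6a, 4 of 11). Serpinb12 and Serpinb1c were close to the lowest levels tested, with means of 0 and 0.0493 CPM with mineral oil and 0.128 and 0.594 CPM with CCl4. The next shares were 33.3% in the keratins (Krt5, Krt14, Krt19 and Krt20, 4 of 12), 30.8% in the Ms4a genes (Ms4a3, Ms4a6d, Ms4a7 and Ms4a14, 4 of 13) and 30% in the annexins (Anxa3, Anxa4 and Anxa5, 3 of 10). Krt5 and Krt20 were also close to the lowest levels tested. Their means were 0 and 0.00471 CPM with mineral oil and 0.355 and 0.111 CPM with CCl4. The matrix metalloproteinases (Mmp2, Mmp12, Mmp13, Mmp14 and Mmp23) followed with 29.4% (5 of 17), the collagens with 27.8% (10 of 36) and the Snx family of sorting nexins, which shape and sort endosomes, with 27.6% (8 of 29). Snx5, a retromer-linked member, was at 52.3, 36.1, 31.6 and 45.7 CPM with mineral oil and at 72.2, 133 and 157 CPM with CCl4 (1.54 ± 0.26, adjusted p = 0.00549; with the score 1.02, adjusted p = 0.0529). With the score no Serpinb, keratin or Snx gene was higher, while Ms4a14, Anxa3, Anxa4, Mmp12, Col5a2 and Col6a2 were. The share called lower was 65% in the major urinary proteins (13 of 20), 63.2% in the Ugt family (12 of 19), 43.8% in the hydroxysteroid dehydrogenases (Hsd, 7 of 16), 41.2% in the carboxylesterases (Ces, 7 of 17, with Ces1h higher), 40% in the sulfotransferases (Sult1b1, Sult1d1, Sult2a7 and Sult2a8, 4 of 10) and 38.9% in the cytochromes P450 (28 of 72, with Cyp1b1, Cyp2a22 and Cyp3a44 higher). Mup genes are near-identical copies and their single values are uncertain. Placed along the chromosomes of the RefSeq annotation, the called genes formed 9 runs of 4 neighbours called in one direction. All 9 runs were of lower genes, among them Akr1c13, Akr1c19, Marcksl1-ps4 and Akr1c12 on chromosome 13 and Ces2h, Ces3a, Ces3b and Ces4a on chromosome 8. These and the runs of Mup genes on chromosome 4 lie among related copies. Lower calls were also more frequent than higher ones (7.2% against 5.31%). How many runs would arise without any effect of position was not tested.

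In ΔEGFR mice the same contrast of CCl4 against mineral oil called 319 genes higher (1.77%) and 427 lower (2.38%). Together these were 746 genes, and 101, 75 and 129 without ΔEGFR CCl4 replicates 1, 2 and 3 and 289, 182 and 94 without ΔEGFR mineral oil replicates 1, 2 and 4. Of the 94 and 90 WT genes called with and without the score, 69 and 68 were also called there and all 184 had the same sign. The ΔEGFR groups did not overlap in 86 and 73 of them (12.3% and 9.32% of all genes tested). The ΔEGFR libraries were also in the fit with the score that picked these genes, so these counts are not independent of it. The test of the difference between the genotypes' responses called 0 genes with edgeR, with 568 genes at an unadjusted p under 0.05, and DESeq2 called 2 (Gm16199 and Psmd10) and limma 1 (Gm16199). Ulk2 had a change of -0.23 in ΔEGFR (adjusted p = 0.376) and Rhoc one of 1.32 (adjusted p = 0.0876), against -1.30 and 2.89 in WT, and for both the adjusted p of the difference was 1.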

How the data were processed

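The libraries are stranded mRNA libraries (KAPA kit), per the labels. The submitters' processing notes name STAR 2.7.8a, RSEM 1.3.0 and GRCm39. Which annotation release was used, and whether counting used strand, is not given in the sources used here. The deposited files hold expected counts and TPM per gene and library. Expected counts were rounded to whole numbers. Gene names for 91.4% of 56953 identifiers came from a GRCm38 annotation. Genes that passed edgeR's filterByExpr (minimum count 10, minimum total 15, by group) were tested (17975). edgeR 4.0.16 (TMM factors, robust quasi-likelihood fit, 1 mean per group over all 15 libraries, Benjamini-Hochberg adjustment over all genes tested, threshold 0.05) gave log2 fold changes with standard errors, and a second fit added the macrophage score (prior count 2) as a covariate. CPM use the TMM library sizes. The edgeR fit was tested on simulated data in which no gene was made to follow the macrophage score. That test cannot show how the fit with the score behaves for genes that do. The biological coefficient of variation was 50.9%.

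The genes named are a selection from a rule: in each of 68 lists up to 3 called genes per direction by adjusted p; the 15 per direction with the lowest adjusted p with the score, no overlap of the groups and a mean of 2 or more on the log2 CPM scale; the 6 per direction with the largest changes that the score took below 0.5 of their size; up to 3 per direction in 8 symbol families; runs of 4 neighbours; and marker checks. Of 81 genes checked under the alternatives 31 lie outside it and were chosen after their values were seen, as were genes named to spell out a count. The comparison, its lists and its genes were chosen with earlier results of these data known. Some genes and lists are not reported here. Alternatives were DESeq2 1.42.0, limma 3.58.1 on deposited TPM as log2(TPM + 1), other scaling and filters, the 7 WT libraries alone, a depth term, other scores and each library left out. RefSeq promoter sequences (GRCm38.p6) covered 12075 of the tested genes.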

Additional observations from a re-analysis of the deposited data

Results flagged for a closer look

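In 1 of 94 values tested over the 4 mineral oil libraries a library stood apart by Dixon's criterion, and chance flags about 1 in 20. Atg2b, a lipid transfer protein of autophagosome growth, was at 45.3 CPM in mineral oil replicate 1 and at 60.4, 60.6 and 60.8 CPM in the others, with a gap of 0.976 of the range on the log2 scale. Its change with CCl4 was -0.79 ± 0.15 (edgeR, adjusted p = 0.00716) and -0.88 without that library (adjusted p = 0.00282).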

How the results depend on the processing

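No paired analysis was possible because the labels give no replicate numbers that tie libraries of different groups. No called change of the 81 genes checked changed sign. Of the WT comparison (2250 genes), 533 were called in the 7 WT libraries alone, 3622 with DESeq2, 1457 with no low-count filter and 575 to 5111 with 1 library left out. With the macrophage score (274) the counts were 0 in the 7 WT libraries alone, 1287 with DESeq2, 157 with the depth term, 75 with limma, 170 with no scaling factor, 2078 with the Kupffer cell score in its place, 766 with the score of all other cells and 32 to 362 with 1 library left out. The number called in both fits (184) was 0, 916, 75, 113, 1740 and 615 with the 7 WT libraries, DESeq2, limma, no scaling factor, the Kupffer cell score and the other-cell score, and 23 to 198 with 1 library left out. Of the 184, 184 were called with the Kupffer cell score and 182 with the other-cell score. The other-cell score pools all marker lists but those of hepatocytes and Kupffer cells, so it includes the macrophage markers. The Kupffer cell score overlapped between the WT groups. In ΔEGFR (746) the counts were 2410 with DESeq2, 1643 with the depth term, 2268 with limma, 470 with no filter, 1180 with no scaling factor and 75 to 972 with 1 library left out. For the difference between genotypes (0) they were 2 with DESeq2, 1 with limma and 0 to 0 with 1 library left out. The causes were not tested. Of the 78 of these genes called without the score 70 stayed called whichever library was left out. With the score, calls were lost in 213 fits with 1 library left out and in 162 fits of other alternatives. The call was the same in 348 and 672 fits, but these include genes not called with the score in either fit. All 61 of the 81 genes that were called with the score lost the call in the 7 WT libraries alone. Genes near 1 CPM in the shallower libraries rest on few counts, and single members of near-identical families are uncertain.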

Other observations

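A few genes better known from embryo or nerve than from liver were also higher with CCl4 with and without the macrophage score. Gdf3, a TGF-beta family ligand of the early embryo, was at 0.26, 0, 0.0399 and 0.0942 CPM with mineral oil and at 2.5, 7.37 and 3.64 CPM with CCl4. Its log2 change was 5.36 ± 0.90 (edgeR, adjusted p = 0.00549; 6.57 without mineral oil replicate 1) and 3.94 with the score (adjusted p = 0.028). Igf2bp2, a fetal RNA-binding protein, was at 1.33, 1.23, 0.519 and 1.7 CPM and at 10.2, 9.79 and 26.6 CPM, with changes of 3.70 ± 0.61 (adjusted p = 0.00536; 3.11 without CCl4 replicate 3) and 2.74 with the score (adjusted p = 0.0463). Kif1a, a kinesin of axonal transport, was at 0.0595, 0.112, 0.0399 and 0.151 CPM and at 0.649, 5.1 and 8.24 CPM, with changes of 5.70 ± 0.72 (adjusted p = 0.00344; 6.30 and 5.04 without CCl4 replicates 1 and 3) and 5.02 with the score (adjusted p = 0.0285). In all 3 genes each CCl4 library lay above each mineral oil library, as in 12.1% of all genes tested.

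Sesn3, a sestrin that restrains mTORC1 signalling, was even within both groups, at 48.6, 48.8, 54.4 and 57.8 CPM with mineral oil and at 27.4, 26.3 and 26.7 CPM with CCl4. It fell by 0.97 ± 0.16 on the log2 scale (edgeR, adjusted p = 0.00534), with a change of -0.92 with the score (adjusted p = 0.043). With no scaling factor its change was -0.53 (adjusted p = 0.0801), and in ΔEGFR libraries it was -0.38 (adjusted p = 0.131).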
